A study of Mus musculus with 12 samples.

Results

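The tumor response that lung and liver had in common was described over all 12 arrays of the series, 3 of each organ in each condition. All mice were female nude NCR mice, an athymic strain in which mature T cells do not develop. One arm had been injected orthotopically with 4T1, a mammary carcinoma line of mouse origin known to seed distant organs including lung and liver, and the control arm with phosphate-buffered saline. Tissue was taken 7 days later, which the submitters name the pre-metastatic stage. Total RNA of lung or liver tissue was hybridised to Affymetrix mouse expression arrays. For each gene, the tumor-bearing minus control difference was computed in lung and in liver on the log2 scale, and the mean of both differences, called the averaged change below, was tested. Of 12393 genes measured, 7194 had a value above 4 (log2) on at least 3 arrays of each organ and were tested. A tumor that is growing elsewhere can act on distant organs through cytokines and growth factors in the blood, which mobilise neutrophils and monocytes from the bone marrow and switch on genes in resident cells. Interleukin-1 beta acts through NF-kappa-B and interleukin-6 through STAT3, and these routes, like that of the interferons, have well-known target genes. Chaperones of the heat shock family, in turn, are controlled by heat shock factor 1 and help proteins to fold.

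Defining markers fitted the labelled organs. Surfactant protein C, the defining product of alveolar type II cells, read 15.7 to 15.9 on the 6 lung arrays, 6.54 on control liver 2 and 2.24 to 2.64 on the other liver arrays. Albumin read 16.05 to 16.20 on the liver arrays, and on the lung arrays it ranged from 8.96 to 14.65, the highest values being those of tumor lung 1 (14.39) and control lung 3 (14.65). The mean level of 17 hepatocyte transcripts was 8.51 and 9.50 on those arrays and 3.69 to 4.99 on the other lung arrays. Cardiac muscle transcripts also differed between lung arrays, from 3.84 in control lung 1 to 8.02 in control lung 3. None of the 8 hepatocyte transcripts tested was called in either direction by limma, and none had an unadjusted p under 0.05. The part of this RNA in the results was examined only by leaving out those arrays or, separately, the liver-enriched genes. In whole tissue, fewer cells of a type and less RNA per cell cannot be told apart. Each condition's 6 arrays came from 3 mice, and nothing in the labels says which lung and which liver share a mouse.

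The averaged change passed an adjusted p of 0.05 in 618 genes (8.59% of those tested), of which 258 (3.59%) were higher and 360 (5%) lower in tumor-bearing mice. Of these, 562 (7.81%) had the same sign in lung and liver and 56 had opposite signs. An unadjusted p under 0.05 was reached in liver alone by 293 and in lung alone by 109, which does not show that the organs differed. A narrower set of 214 genes (2.97%) was called, had the same sign in both organs and had an unadjusted p under 0.05 in each organ, 101 of them higher (1.4%) and 113 lower (1.57%). Among these 214, the smaller of the 2 organ changes had a median size of 0.44 (log2), and it was above 2-fold in 14 rising and 5 falling genes. Asking instead for an adjusted p under 0.05 in each organ left 31 genes of the same sign (0.431%). The tumor and control arrays did not overlap in either organ, in the same direction, in 357 genes (4.96%), 136 higher (1.89%) and 221 lower (3.07%). Of these, 269 were called (3.74%), 114 higher (1.58%) and 155 lower (2.15%). Across all genes tested the averaged change had a median of -0.05, and 56.3% of genes had the same sign in both organs. Of the 7194, 2520 were lower in both organs and 1533 higher in both. At an unadjusted p under 0.05 (limma), the averaged change was lower in 1185 of the 7194 and higher in 653. The split of the called genes into higher and lower depended on the scaling: centring every array on its median gave 366 higher and 257 lower, and quantile normalization within each organ gave 312 higher and 307 lower. The count of 618 fell to 349 and 361 without control liver 1 or 2, to 403 and 383 without tumor lung 1 or 2, and to 316, 381 and 358 without control lung 1, 2 or 3. With each array left out in turn, 252 of the genes were called every time. When same-numbered lung and liver arrays were first averaged into 1 value, so that 3 values stood against 3, 116 genes were called, 111 of them among the 618. Without the lung arrays that held more hepatocyte RNA, tumor lung 1 and control lung 3, 182 were called and 99 passed the narrower criterion, in a fit with fewer arrays. Without 218 liver-enriched genes, at least 16-fold higher in control liver than in control lung, 622 were called and 213 passed it. The narrower criterion was met by 137 genes without control lung 1.

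**Figure D1:**
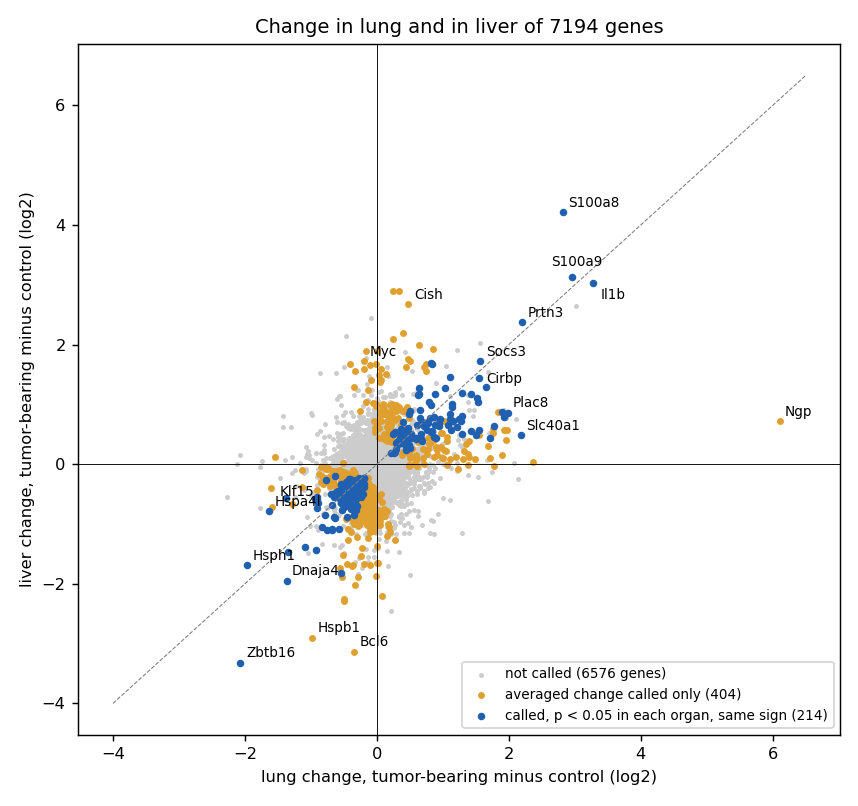
Each point is 1 of the 7194 genes tested, with the tumor-bearing minus control difference in lung (log2, x axis) against that in liver (log2, y axis), and the dashed line marks equal change. Blue points are the 214 genes called with an unadjusted p under 0.05 in each organ and the same sign, orange points the other called genes, and grey points genes not called. S100a8, S100a9, Il1b and Prtn3 lie at the upper right and Zbtb16, Hsph1 and Dnaja4 at the lower left, while Ngp lies far to the right with little change in liver.

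Il1b and the neutrophil genes S100a9, S100a8 and Prtn3 had the largest shared rises, by the smaller organ change among called genes apart in both organs. Il1b, which encodes the inflammatory cytokine interleukin-1 beta, read 10.25, 11.18 and 10.08 in tumor lungs against 6.92, 6.85 and 7.92 in control lungs. In liver it read 8.84, 7.59 and 7.49 with tumor against 4.96, 4.85 and 5.01. Every tumor array lay above every control array in both organs, by 9.68-fold in lung and 8.19-fold in liver on average. The averaged change was 3.15 ± 0.29 (SE, log2; adjusted p = 0.000997), and the lung and liver changes, 3.27 and 3.03, differed by 0.24 ± 0.58 (adjusted p = 0.868).

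S100a8 and S100a9 encode the subunits of calprotectin, a calcium- and zinc-binding complex abundant in neutrophils. S100a9 read 15.68, 15.55 and 15.45 in tumor lungs and 11.63, 13.35 and 12.80 in control lungs. In livers it read 9.97, 9.19 and 9.38 against 5.07, 7.97 and 6.09. The conditions did not overlap in either organ, the averaged change being 3.05 ± 0.45 (adjusted p = 0.00553, and 0.0547 when same-numbered arrays were averaged). S100a8 read 15.49, 15.40 and 15.36 against 11.57, 13.51 and 12.72 in lung, and 10.42, 8.81 and 9.92 against 2.56, 8.02 and 5.95 in liver. Its controls were spread widely, control replicate 1 being lowest and control replicate 2 highest in both organs, as for S100a9. The averaged change of S100a8 was 3.51 ± 0.77 (adjusted p = 0.023), which missed the threshold without tumor liver 1 (0.0516) or control lung 1 (0.0585), stood at 0.05 without tumor lung 2, and was 0.0973 when same-numbered arrays were averaged. The plot of rising genes by array shows these values.

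Prtn3 encodes proteinase 3, a serine protease made by neutrophil precursors and stored in granules. It read 4.22, 5.96 and 4.48 in tumor lungs, and all control lungs were under 4 (2.79, 2.79 and 2.47), so the lung rise can only be given as at least 1.85-fold. In liver, where its level was higher, it read 10.98, 11.42 and 11.18 with tumor and 7.87, 9.50 and 9.08 without, a 5.20-fold rise. Prtn3 passed the filter in lung only through its tumor arrays. With values under 4 set to 4, its averaged change was 1.63 (adjusted p = 0.0159, limma). It was called in each alternative in which it was tested, but the stricter filters, and leaving out liver-enriched genes, removed it before testing. These calls are not independent of the rise that let it pass the filter. Of 36 neutrophil genes measured, 15 passed the filter in both organs, which leaves out those silent in liver. Among these, 8 rose (53.3%, against 3.59% of all genes) and none fell. In both organs 14 were higher, against 1533 of all 7194 genes. The median averaged change was 0.58 against -0.05 over all genes. The mean level of the 36 genes was 8.24 to 8.81 on tumor lung arrays against 6.0 to 6.43 on control ones, and 5.43 to 5.54 on tumor liver arrays against 4.88 to 5.28. The organs differed for Ngp, the neutrophilic granule protein, which changed by 6.10 in lung and 0.72 in liver (difference 5.39 ± 0.75, adjusted p = 0.0161). Csf3r, the G-CSF receptor, changed by 2.37 in lung and 0.04 in liver (difference 2.32 ± 0.43, adjusted p = 0.0399), and Ncf4, a subunit of the phagocyte NADPH oxidase, by 1.96 and 0.40 (difference 1.56 ± 0.26, adjusted p = 0.0252). Lcn2, which encodes the siderophore-binding protein of neutrophil granules and of the acute phase, was at 0.39 ± 0.19 (adjusted p = 0.244).

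**Figure D2:**
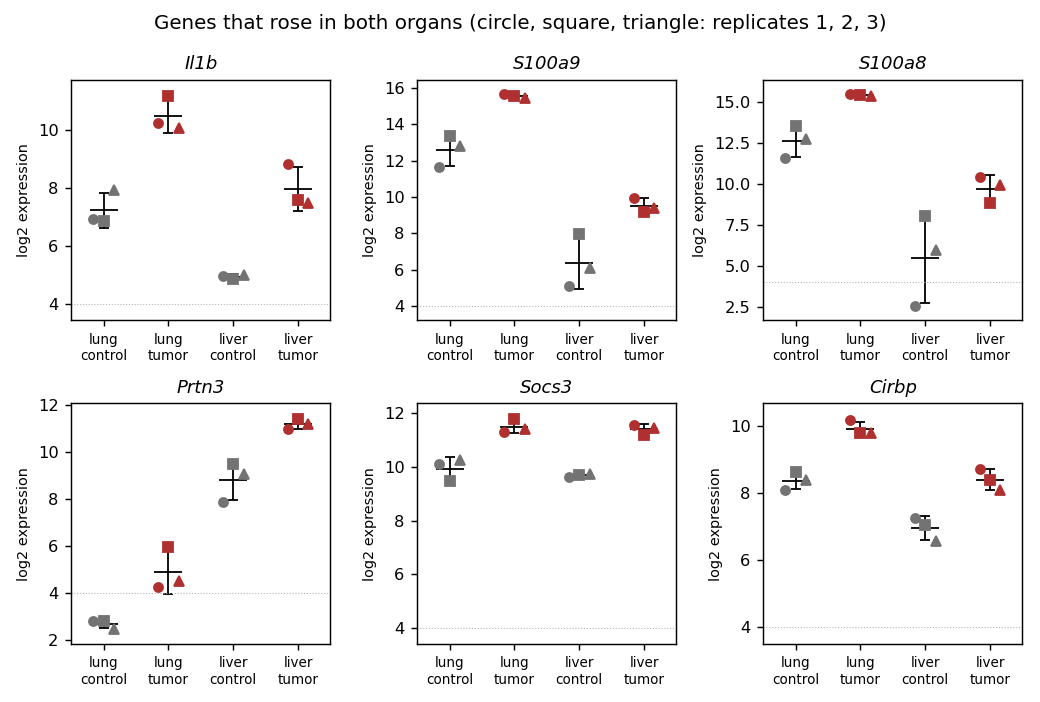
The 6 panels plot the log2 expression of Il1b, S100a9, S100a8, Prtn3, Socs3 and Cirbp on each of the 12 arrays by organ and condition, controls in grey and tumor-bearing mice in red. Circle, square and triangle stand for replicates 1, 2 and 3, the bar and whiskers give the mean and SD of 3 arrays, and the dotted line marks the filter value of 4. In every panel the tumor arrays of an organ lie above its control arrays, as the rule that singled out these genes required.

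Monocyte and macrophage genes moved in the same direction. Of 30 measured, 23 were tested, and 6 rose (26.1%, against 3.59% of all genes) and none fell. In both organs 16 were higher, against 1533 of all 7194 genes (median 0.30). Plac8, expressed by monocytes and other recruited leukocytes, read 12.16, 12.38 and 12.65 in tumor lungs against 10.51, 10.45 and 10.29, and 9.77, 9.86 and 10.69 in tumor livers against 9.11, 9.36 and 9.28. Both organs were without overlap, and its averaged change was 1.42 ± 0.16 (adjusted p = 0.00158). Fcer1g, the signalling chain shared by activating Fc receptors, rose by 0.95 in lung and 0.69 in liver (averaged 0.82 ± 0.11, adjusted p = 0.00429). Aif1, a cytoskeletal protein of macrophages, rose by 1.43 and 0.56. Msr1, the macrophage scavenger receptor, had control lungs all under 4, so that it passed the filter in lung only through its tumor arrays and its lung rise was at least 2.56-fold. With values under 4 set to 4, its averaged change was 0.94 (adjusted p = 0.0172, limma), a test that is not independent of that passage. Cd300lf, an inhibitory receptor of myeloid cells, read 10.17, 10.51 and 10.14 in tumor lungs against 8.50, 8.89 and 8.80, and 6.59, 6.42 and 6.43 in tumor livers against 5.92, 6.10 and 5.68, apart in both organs (averaged 1.06 ± 0.10, adjusted p = 0.00132). Coro1a, which encodes the actin-binding protein coronin-1A of leukocytes, read 12.13, 12.12 and 11.92 in tumor lungs against 10.80, 10.99 and 10.52, and 7.39, 7.17 and 7.61 in tumor livers against 5.78, 6.12 and 6.69. It was apart in both organs, a condition under which it was singled out, and its averaged change was 1.24 ± 0.15 (adjusted p = 0.00312). Adgre1, which encodes the F4/80 marker of resident macrophages, was 8.97 to 9.50 on tumor lung arrays and 8.68 to 8.85 on control ones, but 9.30 to 9.67 on tumor liver arrays and 9.34 to 9.66 on control ones, where the conditions overlapped.

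Of the genes of antibody-secreting cells, Jchain, which joins the chains of secreted IgA and IgM, was higher by 1.29 in lung and 0.80 in liver (averaged 1.05 ± 0.18, adjusted p = 0.0104), and a probe set listed for the kappa variable segment Igkv8-30 was higher by 1.43 and 1.17 (averaged 1.30 ± 0.17, adjusted p = 0.00401). Kappa variable segments are near copies of each other, so which segments that probe set read is uncertain. Of 20 B and plasma cell genes measured, 3 passed the filter in both organs, and Jchain was the 1 called. The B cell receptor gene Cd79a was at the lowest value of the scale, 2.04, on all liver arrays and all control lung arrays, and at 2.62 to 3.21 on tumor lung arrays. The T cell receptor gene Cd3e was at 2.04 to 2.35 on all 12 arrays, and none of the 3 T and NK cell genes tested was called or had an unadjusted p under 0.05.

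Socs3, the feedback inhibitor that STAT3 induces, was among the genes with the smallest p. It read 11.32, 11.78 and 11.44 in tumor lungs against 10.10, 9.47 and 10.26 in control lungs. In livers it read 11.59, 11.19 and 11.47 against 9.62, 9.71 and 9.75. The arrays were apart in both organs and the rise was alike, 2.97-fold in lung and 3.30-fold in liver (averaged change 1.65 ± 0.14, adjusted p = 0.000997; difference between organs -0.15 ± 0.28). Its 2 other probe sets changed by 3.00 and 1.18 in lung and by 3.17 and 1.80 in liver. A promoter sequence of Socs3 is shown because it holds the letters of a STAT palindrome, TTCNNNGAA in either orientation, which 9.55% of 27025 genes with a promoter window also hold. The window runs from 250 bases before to 50 bases after each transcript start, and all sequences here are from RefSeq, build GRCm38.p6, with the match described in capitals. Among genes of the narrower set with a window, 13 of 79 that rose and 5 of 100 that fell held the palindrome, which describes letters and not binding. The Socs3 stretch lies at chr11:117969482-117969550 on the minus strand, with the palindrome at positions -154 to -146 from the start.
Socs3: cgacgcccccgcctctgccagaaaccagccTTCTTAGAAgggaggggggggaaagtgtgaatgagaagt

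Other genes of the IL-6 and STAT3 route rose less evenly. Of 25 measured, 22 were tested. Of these, 9 rose (40.9%, against 3.59% of all genes) and 1 fell (4.55%, against 5%). In both organs 14 were higher, against 1533 of all 7194 genes, and the median averaged change was 0.20. Without single arrays the number that rose was 5 to 8, being 5 without tumor liver 1, control liver 1 or 2, tumor lung 1 or any control lung, and it was 3 when same-numbered arrays were averaged. Junb, an AP-1 transcription factor of the immediate early class, rose by 0.84 in lung and 1.68 in liver with no overlap in either (averaged 1.26 ± 0.18, adjusted p = 0.00477). Cish, a feedback inhibitor of STAT5 signalling, read 8.60, 8.38 and 8.91 in tumor lungs against 8.15, 8.09 and 8.21, and 8.53, 8.91 and 9.53 in tumor livers against 6.59, 7.08 and 5.27. Its arrays were apart in both organs, with a change of 0.48 in lung and 2.68 in liver (averaged 1.58 ± 0.28, adjusted p = 0.0118). Il6st, the gp130 receptor chain, was at 0.20 in lung and 0.59 in liver (averaged 0.40 ± 0.11, adjusted p = 0.0435, over 0.05 without any of 10 single arrays), and another of its probe sets had a lung change of -0.18. Bcl6, a transcriptional repressor, was the member that fell: by 3.13 on the log2 scale in liver, from 10.86, 10.94 and 11.25 to 9.38, 7.58 and 6.69, while its lung change was -0.35 (averaged -1.74 ± 0.36, adjusted p = 0.0183). Il1rn, the interleukin-1 receptor antagonist, rose by an averaged 1.31 ± 0.26 (adjusted p = 0.0157), with 1.99 in liver and 0.64 in lung, where the conditions overlapped. In the IL-1 and NF-kappa-B list 4 of 16 genes tested rose (25%, against 3.59% of all genes) and none fell. Among them Birc3, an NF-kappa-B-induced inhibitor of apoptosis, was apart in both organs (averaged 0.34 ± 0.07). Of the acute phase list, 2 of 17 rose (11.8%, against 3.59% of all genes), Il1rn and Steap4, a metalloreductase. Steap4 rose by 1.08 in lung and 0.65 in liver. Saa3, an inducible serum amyloid A, was at 2.13 in lung and -0.25 in liver and was not called (adjusted p = 0.181).

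Cirbp, the cold-inducible RNA-binding protein, whose transcript is known to rise when temperature falls, came next after Socs3 in the smaller of its organ changes, among called genes apart in both organs. It read 10.16, 9.78 and 9.79 in tumor lungs against 8.08, 8.60 and 8.39, and 8.70, 8.39 and 8.08 in tumor livers against 7.23, 7.05 and 6.56. No tumor array overlapped a control array of its organ. The change was 1.55 in lung and 1.44 in liver (averaged 1.5 ± 0.15, adjusted p = 0.00134), and it was called in every alternative tried. It was the 1 gene called among the 5 cold-inducible RNA-binding protein genes tested. Spata13 rose by 1.11 and 1.45 (averaged 1.28 ± 0.18, adjusted p = 0.00481), and Adamts1, a secreted metalloprotease that cleaves proteoglycans, by 1.13 and 1.00 (averaged 1.07 ± 0.17, adjusted p = 0.00723). Both were apart in both organs.

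Interferon-responsive genes were mostly higher in both organs. Of type I interferon response genes 30% were called higher, and of interferon gamma response genes 4.55%, against 3.59% of all genes. Ddx60, a helicase of antiviral defence, read 4.88, 5.10 and 4.14 in tumor lungs against 3.07, 3.35 and 3.09 in control lungs, all under 4, so that its lung rise was at least 1.63-fold. In livers it read 6.05, 5.76 and 5.64 against 4.34, 5.14 and 4.84. It passed the filter in lung only through its tumor arrays. With values under 4 set to 4 its averaged change was 0.87 (adjusted p = 0.0167, limma), a test that is not independent of that passage. The promoter holds the core of an interferon-stimulated response element, a pair of GAAA separated by any 2 bases, in either orientation, at the places shown in capitals. That core was in 3.99% of all genes' windows, in 8 of 79 of the narrower set that rose and in 2 of 100 that fell. The stretches lie at chr8:61928004-61928073 and chr8:61928038-61928086 on the plus strand and overlap.
Ddx60 first: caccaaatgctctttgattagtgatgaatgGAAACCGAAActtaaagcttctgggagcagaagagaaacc
Ddx60 second: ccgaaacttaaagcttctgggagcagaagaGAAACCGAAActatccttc

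Of 20 type I interferon response genes tested, 6 rose and none fell, 16 were higher in both organs, and the median averaged change was 0.47. Leaving out single arrays gave 1 to 6 that rose, 1 without any of the control lungs, and averaging same-numbered arrays gave 0 by limma, with 116 called over all genes. Irf9, an interferon regulatory factor, rose by 0.65 in lung and 0.77 in liver without overlap (averaged 0.71 ± 0.13, adjusted p = 0.0136). Zbp1, a sensor of Z-form nucleic acids, read 5.29, 6.69 and 6.86 in tumor lungs against 4.54, 4.85 and 4.89, and 7.26, 7.80 and 8.77 in tumor livers against 6.59 to 7.2, just without overlap (averaged 1.32 ± 0.31, adjusted p = 0.0295, up to 0.0686 with 1 array left out). Ifitm1, an interferon-induced membrane protein of antiviral defence, was apart in both organs and rose by 1.72 in lung and 0.44 in liver (averaged 1.08 ± 0.10, adjusted p = 0.000997), and by more in lung (difference 1.28 ± 0.20, adjusted p = 0.0179). In the interferon gamma list 18 of 22 genes tested were higher in both organs and the median was 0.79, the highest of any list with 10 or more genes tested. Of the 22, 1 was called (4.55% higher, against 3.59% of all genes), Cd274, which encodes PD-L1. It was at 1.84 in lung and 0.88 in liver (adjusted p = 0.0361), and 9 of the 12 arrays, left out alone, ended the call, with an adjusted p of up to 0.0775. At an unadjusted p under 0.05, 12 of the 22 were higher and none lower, against 653 higher and 1185 lower of all 7194 genes. The tumor replicates were far apart here: the mean level of the interferon gamma genes was 8.31, 9.12 and 9.90 on tumor lung arrays 1, 2 and 3 against 7.86 to 8.44 on control ones. In liver it was 8.16, 8.48 and 8.88 against 7.52 to 8.2, so that tumor replicate 1 lay inside the control range in both organs and tumor replicate 3 was highest in both. Leaving out tumor lung 1 raised the number of interferon gamma genes called to 8, and leaving out tumor replicate 1 of both organs raised it to 11. Genes of MHC class I and the immunoproteasome, which load peptides for presentation, were higher in both organs in 11 of 14, with none called by limma and 5 at an unadjusted p under 0.05. Tap1, the peptide transporter, was at 1.61 ± 0.45 (adjusted p = 0.0554), with tumor replicate 3 highest in both organs. In the MHC class II and dendritic cell list 1 of 10 rose (10%, against 3.59% of all genes), H2-Eb1. Its change was 1.07 in lung and -0.01 in liver, where all 6 arrays read 6.596 to 6.623 (difference 1.08 ± 0.15, adjusted p = 0.0161).

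**Figure D3:**
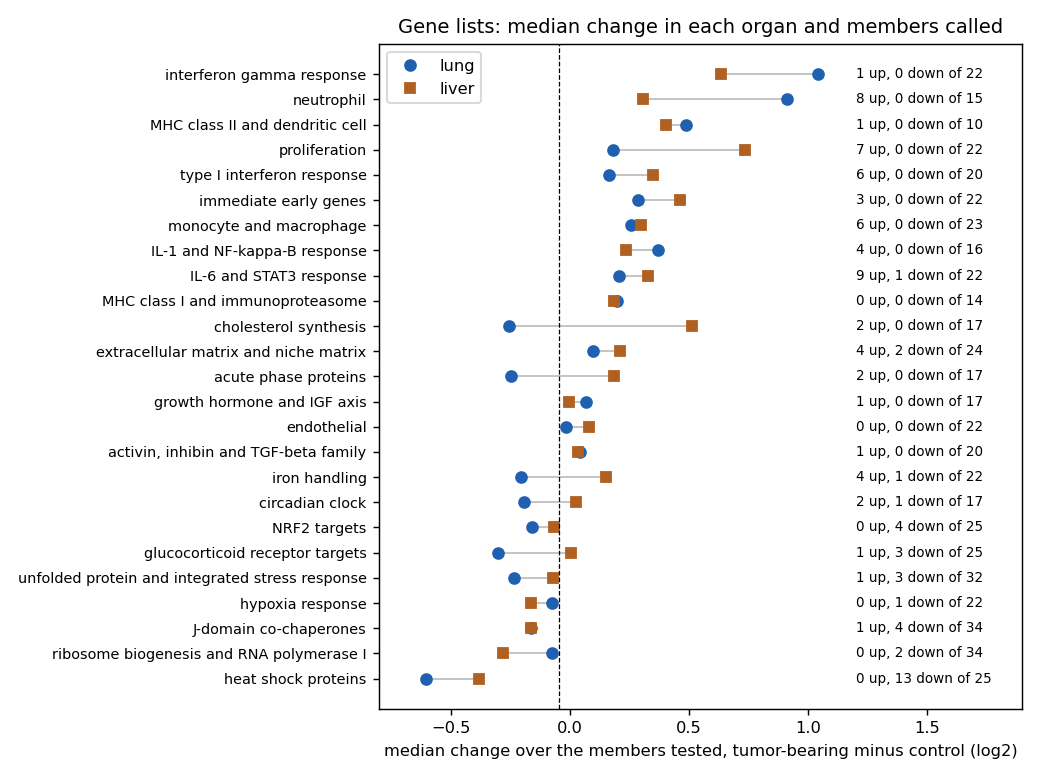
Each row is a gene list with at least 10 genes tested, and the points give the median tumor-bearing minus control change of its members (log2) in lung (blue circles) and liver (brown squares), with the number of members called in each direction at the right. The dashed line marks the median averaged change of all genes tested, -0.05. Heat shock proteins lie lowest in both organs, and interferon gamma response and neutrophil genes lie highest in lung.

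Heat shock proteins had more falls called than any other list. Of 30 heat shock protein and co-factor genes measured, 25 were tested. Of these, 13 fell (52%, against 5% of all genes) and none rose. In both organs 22 were lower, against 2520 of all 7194 genes. The median averaged change was -0.45 against -0.05 over all genes. At an unadjusted p under 0.05, 20 of the 25 were lower and none was higher, against 1185 and 653 of all 7194 genes. In 12 of the 25 the tumor arrays lay below the control arrays in both organs, against 221 of all 7194 genes. Of the 13, 7 had an unadjusted p under 0.05 in each organ, against 113 of the 360 genes called lower. Hsph1, an HSP110-type nucleotide exchange factor for HSP70, read 9.72, 10.92 and 11.92 in tumor lungs against 13.04, 12.73 and 12.70 in control lungs. In livers it read 9.29, 10.83 and 11.51 against 12.53, 12.24 and 11.95. It was apart in both organs, 3.92-fold lower in lung and 3.23-fold lower in liver, and tumor replicate 1 was lowest and tumor replicate 3 highest in both. The averaged change was -1.83 ± 0.41 (adjusted p = 0.0253), and its second probe set gave -1.86. With single arrays left out its adjusted p reached 0.0619, being over 0.05 without control liver 1 or 2, tumor lung 2 or any control lung, and it was 0.121 when same-numbered arrays were averaged.

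Hspa4l, another member of the HSP110 group, read 7.98, 7.74 and 8.65 in tumor lungs against 9.85, 9.74 and 9.67, and 6.79, 6.68 and 6.83 in tumor livers against 7.96, 7.53 and 7.19. It was apart in both organs, its averaged change was -1.21 ± 0.16 (adjusted p = 0.00429), and it was called in every alternative tried. Chordc1, a co-chaperone of HSP90, read 10.64, 10.90 and 11.68 in tumor lungs against 12.30, 12.12 and 12.09, and 9.49, 10.49 and 10.68 in tumor livers against 11.71, 11.52 and 11.57. It fell in both without overlap (averaged change -1.24 ± 0.22, adjusted p = 0.0117). Hspb1, the small heat shock protein HSP27, fell mostly in liver, from 8.39, 6.28 and 6.97 to 4.42, 3.76 and 4.75, while in lung it went from 14.10, 13.74 and 13.70 to 12.52, 12.57 and 13.48. Its averaged change was -1.95 ± 0.34 (adjusted p = 0.0108), and the test of the difference between organs did not pass (1.92 ± 0.67, adjusted p = 0.185). Stip1, which links HSP70 to HSP90, had changes of -1.37 in lung and -0.56 in liver, and Fkbp4, an HSP90-bound immunophilin of steroid receptor complexes, of -1.14 and -0.38. Another probe set of Fkbp4 gave 0.31 in lung and -0.23 in liver. Hspa2, a testis-enriched HSP70, had changes of -0.90 and -0.66 (averaged -0.78 ± 0.11, adjusted p = 0.00429), and Hsp90aa1, the inducible HSP90, of -0.40 and -0.49 (averaged -0.45 ± 0.11, adjusted p = 0.0383, over 0.05 without any of 10 single arrays). Hspb8, a small heat shock protein of selective autophagy, was apart in both organs at -0.39 and -0.37 (averaged -0.38 ± 0.07, adjusted p = 0.0151). Of its other probe sets, 1 gave -1.13 in lung and -0.22 in liver, and another gave -0.02 and 0.10. Ahsa1 and Ahsa2, which stimulate the ATPase of HSP90, had averaged changes of -0.54 and -0.98 (adjusted p = 0.0358 and 0.0254). The mitochondrial chaperonins Hspd1 and Hspe1 had lung changes of -0.77 and -0.60 and liver changes of -0.08 and -0.17 (averaged -0.42 and -0.39, adjusted p = 0.0191 and 0.0291). Among members that were not called, the inducible HSP70 genes Hspa1a and Hspa1b had averaged changes of -1.27 ± 0.77 and -1.02 ± 0.41 (adjusted p = 0.335 and 0.151). Hspa8, the constitutive HSP70, was at -0.43 ± 0.12 (adjusted p = 0.0528), and 1 of its 3 other probe sets had positive changes, 0.38 in lung and 0.71 in liver.

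Some J-domain proteins, which present clients to HSP70, fell as well. Of 34 tested, 4 fell (11.8%, against 5% of all genes) and 1 rose (2.94%, against 3.59%). The 4 that fell were apart in both organs, as were 155 of the 360 genes called lower among all 7194. Dnajb2, a neuron-enriched member that carries ubiquitin-interacting motifs, read 9.13, 9.30 and 9.20 in tumor lungs against 10.03, 10.05 and 9.91, and 9.12, 9.35 and 9.24 in tumor livers against 10.25, 10.10 and 9.90. The arrays within each group were close together, the change was nearly the same in both organs (-0.79 and -0.85; difference 0.06 ± 0.15), and its averaged change of -0.82 ± 0.08 (adjusted p = 0.000997) was called in every alternative tried. Dnaja4 read 9.11, 9.26 and 9.55 in tumor lungs against 10.77, 10.69 and 10.56, and 3.85, 5.63 and 6.42 in tumor livers against 7.37, 7.36 and 7.03. Its averaged change was -1.66 ± 0.34 (adjusted p = 0.0191), and its 2 other probe sets changed by -1.34 and -1.66 in lung and by -0.43 and -0.79 in liver. Dnaja1, a main partner of HSP70 in the cytosol, had changes of -0.91 and -0.73 (averaged -0.82 ± 0.19, adjusted p = 0.0269, up to 0.0661 with 1 array left out), and Dnajb9, a partner of the HSP70 of the endoplasmic reticulum, of -0.40 and -0.74 (averaged -0.57 ± 0.11, adjusted p = 0.0151). The member that rose, Dnajc12, had a liver change of 1.56 and a lung change of -0.33 (difference -1.89 ± 0.27, adjusted p = 0.0161).

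**Figure D4:**
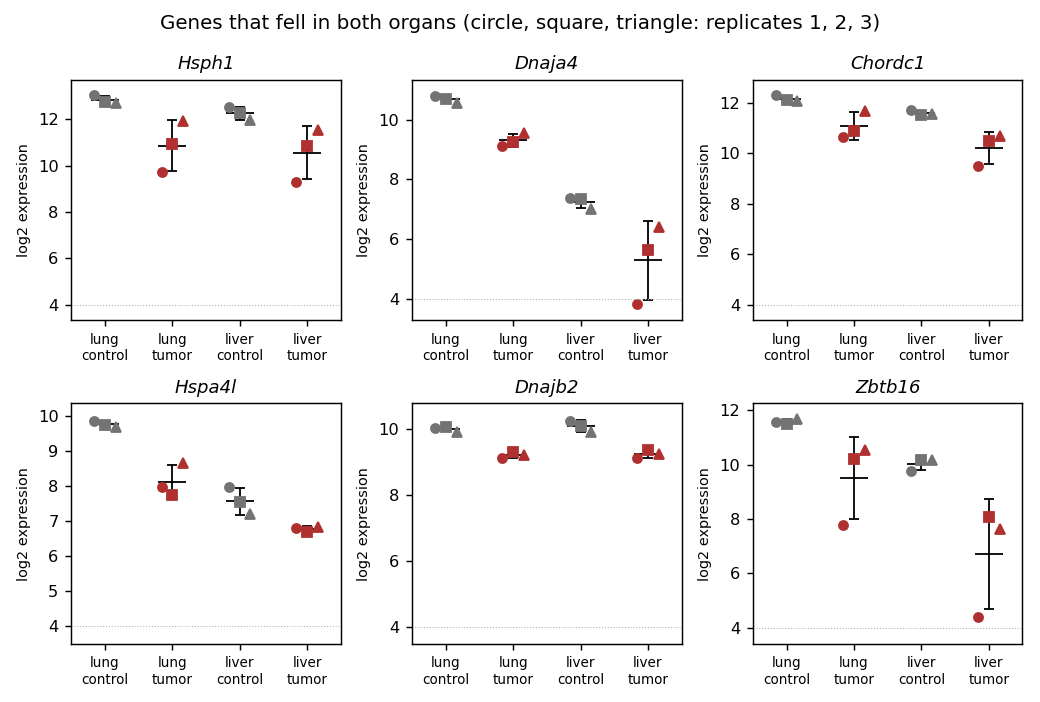
The 6 panels plot the log2 expression of Hsph1, Dnaja4, Chordc1, Hspa4l, Dnajb2 and Zbtb16 on each of the 12 arrays by organ and condition, controls in grey and tumor-bearing mice in red. Circle, square and triangle stand for replicates 1, 2 and 3, the bar and whiskers give the mean and SD of 3 arrays, and the dotted line marks the filter value of 4. The tumor arrays of an organ lie below its control arrays in every panel, as the rule that singled out these genes required. For Hsph1, Dnaja4, Chordc1 and Zbtb16 the circle is the lowest tumor point in both organs.

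Levels of the chaperone list ran in the same order over the numbered tumor arrays of lung and of liver. The mean level of the 30 heat shock genes was 9.15, 9.42 and 9.81 on tumor lung arrays 1, 2 and 3 against 10.004 to 10.09 on control lungs, and 8.38, 8.72 and 8.91 on tumor liver arrays against 9.08 to 9.38 on control livers. No tumor array reached the control range of its organ. Tumor replicate 1 was the lowest of the 3 tumor arrays in both organs for 7 of the 13 heat shock genes that fell and for all 4 J-domain genes that fell. The number of heat shock genes called was 8 to 14 with single arrays left out. It was 8 without control liver 1, control lung 1 or tumor lung 2, 8 and 7 without tumor replicate 1 or 2 of both organs, and 15 without tumor replicate 3 of both organs. It was 3, 5 and 6 without control replicate 1, 2 or 3 of both organs, and 2 when same-numbered arrays were averaged, while the median of the list stayed between -0.68 and -0.38 over all alternatives. Without the lung arrays that held more hepatocyte RNA, 4 heat shock genes were called.

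**Figure D5:**
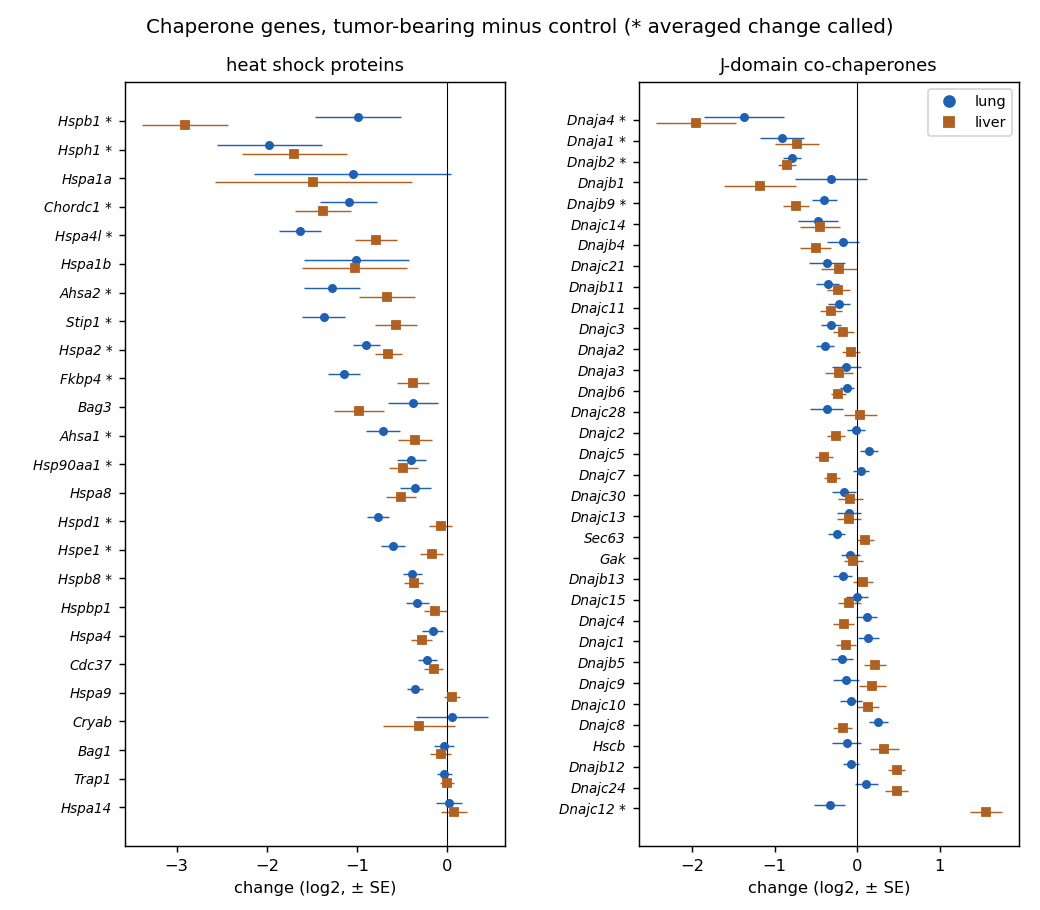
Each row is a chaperone gene, with the tumor-bearing minus control change (log2, ± SE) in lung (blue circles) and liver (brown squares), and an asterisk marks genes whose averaged change was called. In the left panel 22 of the 25 heat shock protein and co-factor genes lie left of 0 in both organs, and in the right panel most of the 34 J-domain genes lie near 0 except Dnaja4, Dnaja1, Dnajb2 and, in liver, Dnajb1 and Dnajb9 on the left and Dnajc12 on the right.

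Promoter letters of the chaperones are shown because heat shock factor 1 is known to bind repeats of GAA in alternating orientation. The pair GAANNTTC, which reads the same on both strands, was in 9.04% of all genes' windows, and in 7 of the 12 called heat shock genes that have a window (Chordc1, Fkbp4, Hspb1, Hspb8, Hspd1, Hspe1 and Hsph1). It was in 14 of 100 genes of the narrower set that fell and in 6 of 79 that rose. A longer run of GAA, TTC and GAA with any 2 bases between neighbours, in either orientation and chosen after the data were seen, was in 0.662% of all windows and in 4 of the 12, namely Chordc1, Hspd1, Hspe1 and Hsph1. Any gene that holds the longer run also holds the pair. Hspd1 and Hspe1 are transcribed away from each other and share a run, printed on the Hspe1 strand, at positions -89 to -77 from the Hspe1 start. The stretches are at chr1:55088029-55088101 (plus strand, Hspe1), chr5:135887792-135887859 (plus, Hspb1), chr6:128438770-128438837 (minus, Fkbp4), chr9:54699439-54699506 (plus, Dnaja4) and chr4:40722314-40722381 (plus, Dnaja1), and the capitals mark the longer run in Hspe1 and 1 pair in each of the others. The Hspb1 stretch holds another pair, left in lower case, at positions -117 to -110 from the start.
Hspe1: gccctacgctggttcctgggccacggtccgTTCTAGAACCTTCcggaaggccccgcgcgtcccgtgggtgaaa
Hspb1: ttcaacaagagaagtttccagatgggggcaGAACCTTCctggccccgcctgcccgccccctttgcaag
Fkbp4: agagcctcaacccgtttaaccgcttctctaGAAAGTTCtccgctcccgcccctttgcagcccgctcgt
Dnaja4: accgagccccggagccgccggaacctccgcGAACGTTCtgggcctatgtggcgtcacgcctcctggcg
Dnaja1: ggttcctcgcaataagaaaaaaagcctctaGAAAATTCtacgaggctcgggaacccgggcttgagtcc

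Chaperones of the endoplasmic reticulum were tested in a list of their own. Of 32 genes of the unfolded protein and integrated stress response tested, 3 fell (9.38%, against 5% of all genes) and 1 rose (3.125%, against 3.59%). In both organs 17 of the 32 were lower, against 2520 of all 7194 genes, and the median averaged change was -0.10. The number that fell was 2 to 8 with single arrays left out and 0 by limma when same-numbered arrays were averaged. At an unadjusted p under 0.05 with all arrays, 13 of the 32 were lower, against 1185 of all 7194 genes. The genes that fell were Dnajb9, Herpud1, which serves degradation from the endoplasmic reticulum (averaged -0.51 ± 0.12, adjusted p = 0.0281), and Eif2ak3, the stress kinase PERK, whose change was -0.86 in liver and -0.19 in lung. Hspa5, the HSP70 of the endoplasmic reticulum, was at -0.34 ± 0.10 (adjusted p = 0.0632), and Manf, a secreted stress-induced protein, at -0.52 ± 0.15 (adjusted p = 0.0607).

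Zbtb16, which encodes the transcription factor PLZF and is a known glucocorticoid-induced gene, had the largest averaged fall among the genes called. It read 7.79, 10.21 and 10.53 in tumor lungs against 11.56, 11.50 and 11.67, and 4.40, 8.09 and 7.64 in tumor livers against 9.76, 10.16 and 10.16. Both organs were without overlap and tumor replicate 1 was far below the others in both. The averaged change was -2.69 ± 0.64 (adjusted p = 0.0306). Its other probe set, which did not pass the filter, gave -0.89 in lung and -0.72 in liver. With single arrays left out the adjusted p reached 0.0661, being over 0.05 without tumor lung 1 or any control array, and it was 0.129 with same-numbered arrays averaged. Of 25 glucocorticoid receptor target genes tested, 3 fell (12%, against 5% of all genes) and 1 rose (4%, against 3.59%), and the median was -0.09. With single arrays left out 1 to 4 fell and 0 to 2 rose, and none was called by limma when same-numbered arrays were averaged. At an unadjusted p under 0.05 with all arrays, 8 of the 25 were lower and 2 higher, against 1185 and 653 of all 7194 genes. Besides Zbtb16, Klf15, a transcription factor of amino acid metabolism, was at -1.59 in lung and -0.71 in liver, apart in both organs (averaged -1.15 ± 0.27, adjusted p = 0.0303, over 0.05 without any of 8 single arrays). Tsc22d3, the glucocorticoid-induced leucine zipper GILZ, read 12.92, 14.01 and 13.43 in tumor lungs against 13.98, 14.27 and 14.14, where the conditions overlapped, and 11.81, 12.57 and 12.04 against 13.18, 13.30 and 13.18 in liver (averaged -0.88 ± 0.18, adjusted p = 0.0179). The member that rose was Cebpd, a transcription factor that STAT3 also induces (averaged 0.59 ± 0.14, adjusted p = 0.0305, over 0.05 without any of 6 single arrays). Per1, a clock gene that glucocorticoids induce, was at 0.02 ± 0.12 (adjusted p = 0.949). In the circadian clock list 2 of 17 rose (11.8%, against 3.59% of all genes) and 1 fell (5.88%, against 5%). Dbp, an output transcription factor of the clock, was 0.44 higher in lung and 0.29 in liver without overlap (averaged 0.36 ± 0.07, adjusted p = 0.0154). Bhlhe40, a repressor of clock output, was at -0.03 in lung and 0.61 in liver (averaged adjusted p = 0.0334). Cry1, a clock repressor, had a change of -2.26 in liver and -0.51 in lung (averaged -1.38 ± 0.30, adjusted p = 0.023). Arntl, which encodes the clock activator BMAL1, read 2.04, the lowest value of the scale, on all arrays and was not tested.

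Of the other genes with large shared falls, Macrod2, an ADP-ribose hydrolase, changed by -0.84 and -1.05 (averaged -0.94 ± 0.17, adjusted p = 0.0118), and a second probe set gave -0.08 and -0.21. Piga, an enzyme of GPI anchor synthesis, was at -0.93 ± 0.22 (adjusted p = 0.0285, up to 0.0645 with 1 array left out), and Rpl14, a protein of the large ribosomal subunit with many processed copies in the genome, at -1.19 ± 0.29 (adjusted p = 0.0352, over 0.05 without any of 10 single arrays).

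Genes of cell division rose. Of 49 proliferation genes measured, 22 passed the filter in both organs. Of these, 7 rose (31.8%, against 3.59% of all genes) and none fell. In both organs 16 were higher, against 1533 of all 7194 genes, and the median was 0.50. The number that rose was 4 to 7 with single arrays left out, being 4 without any 1 control array, tumor liver 1 or tumor lung 2 or 3, and 3 with same-numbered arrays averaged. With a replicate number left out of both organs it was 0 to 7 by limma, the 0 being without control replicate 2, against 11 at an unadjusted p under 0.05 with all arrays. Mcm3, a subunit of the replicative helicase, changed by 0.44 in lung and 1.63 in liver without overlap (averaged 1.04 ± 0.18, adjusted p = 0.0116). Rrm2, the regulatory subunit of ribonucleotide reductase, read 6.29, 7.23 and 6.83 in tumor lungs against 6.04, 5.86 and 5.83, and 5.88, 5.27 and 6.72 in tumor livers against 4.25, 5.10 and 5.0. It was apart in both (averaged 1.02 ± 0.25, adjusted p = 0.0351, over 0.05 without any of 9 single arrays). Hmgb2, a chromatin protein of dividing cells, was 0.75 higher in lung and 0.69 in liver, and Kif22, a mitotic kinesin, 0.45 and 0.53, both apart in both organs (adjusted p = 0.0141 and 0.0157). The median change of the list was 0.18 in lung and 0.74 in liver. Immediate early genes rose in 3 of 22 (13.6%, against 3.59% of all genes), Junb, Ier2 and Myc. Myc did so in liver (1.72) with a lung change of -0.19. Of 34 ribosome biogenesis genes 2 fell (5.88%, against 5% of all genes) and none rose, with a median of -0.17. In both organs 21 of the 34 were lower, against 2520 of all 7194 genes. No member was called by limma when same-numbered arrays were averaged. At an unadjusted p under 0.05 with all arrays, 5 of the 34 were lower, against 1185 of all 7194 genes. Those that fell were Wdr12 (-0.48 ± 0.12, a call lost without any of 7 single arrays) and Nop16 (-0.34 ± 0.06), both nucleolar assembly factors of the large subunit.

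Among iron genes 18.2% were called higher and 4.55% lower, against 3.59% and 5% of all genes. Among NRF2 target genes none was called higher and 16% were called lower. Slc40a1, which encodes the iron exporter ferroportin, read 8.45, 8.91 and 8.24 in tumor lungs against 6.25, 6.06 and 6.73, and 13.27, 13.38 and 13.31 in tumor livers against 13.01, 12.82 and 12.69. It rose without overlap in both, by 2.19 and 0.48 (averaged 1.33 ± 0.14, adjusted p = 0.00134), and by more in lung (difference 1.71 ± 0.28, adjusted p = 0.0211). Slc11a1, the phagosomal metal transporter of macrophages, rose by 1.51 and 0.48 (averaged 0.99 ± 0.14, adjusted p = 0.00481). Tfrc, the transferrin receptor, had a change of -1.67 in liver and -0.19 in lung (difference 1.48 ± 0.29, adjusted p = 0.0441). In the iron list 4 of 22 rose and 1 fell, 3 of those that rose having an unadjusted p under 0.05 in each organ, with a median of -0.05, equal to that of all genes. Of 25 NRF2 target genes tested, 4 fell and none rose, all of them glutathione S-transferases: Gsta3, Gsta4, Gstm1 and Gstm3. The number was 1 to 4 with single arrays left out and 1 when same-numbered arrays were averaged. The call of Gstm1 was lost without any of 11 single arrays, that of Gstm3 without any of 9 and that of Gsta4 without any of 6. Gsta3, the 1 of them with an unadjusted p under 0.05 in each organ, read 12.11, 12.24 and 12.19 in tumor lungs against 12.77, 12.88 and 12.79, and 14.79 on each tumor liver array against 15.05, 15.02 and 14.87, a small fall that was apart in both organs (averaged -0.41 ± 0.06, adjusted p = 0.00429). The median of that list was -0.07. P4ha2, a collagen prolyl hydroxylase, was the 1 of 22 hypoxia response genes called (4.55% lower, against 5% of all genes). It changed by -1.88 in liver and -0.52 in lung, apart in both organs (averaged -1.20 ± 0.21, adjusted p = 0.0106).

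Of 24 matrix genes, 4 were called higher (16.7%, against 3.59% of all genes) and 2 lower (8.33%, against 5%), with a median of 0.13. Beside Adamts1, Col3a1, a fibrillar collagen chain, was 0.39 higher in lung and 0.60 higher in liver (averaged 0.50 ± 0.13, adjusted p = 0.0481, over 0.05 without any of 10 single arrays). Fn1, the fibronectin gene, was at 0.92 in lung and 0.15 in liver (averaged 0.53 ± 0.12, adjusted p = 0.0254), and its other probe set gave 2.32 and -0.06. Mgp, the matrix Gla protein, changed by 1.899 in liver and 0.001 in lung (adjusted p of the difference 0.0211). In the cholesterol synthesis list Hmgcs1 and Sc5d, 2 of 17, rose (11.8%, against 3.59% of all genes). Their lung changes were 0.07 and 0.20, with the medians of that list at -0.26 in lung and 0.51 in liver. Cish was the 1 called of 17 growth hormone and IGF axis genes (5.88% higher, against 3.59% of all genes). Smad7, an inhibitory SMAD, was the 1 called of 20 activin and TGF-beta family genes (5% higher, against 3.59%). Its change was 1.68 in liver and -0.41 in lung (difference -2.09 ± 0.30, adjusted p = 0.0161). None of the 22 endothelial genes was called by limma (4 had an unadjusted p under 0.05, against 1838 of all 7194 genes). The same held for 5 erythroid genes, 2 alveolar type II and club cell genes and 1 cardiac muscle gene, none with an unadjusted p under 0.05. Of 4 platelet genes 1 was called lower (25%, against 5% of all genes), Cavin2, with a change of -0.75 in liver and -0.01 in lung.

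The lung and liver changes differed from each other in 74 genes (1.03%) at an adjusted p under 0.05, and 57 of these had opposite signs. Of the 618 genes of the averaged change, 47 were among them, and of the narrower set of 214, 2 were. The SE of a difference is 2 times that of the average, and a difference that misses the threshold does not show that the organs respond alike. Of 97 genes singled out by rule, 78 were called for the averaged change, 46 of them stayed called with each array left out in turn, and 28 with same-numbered arrays averaged. Leaving out control lung 1 ended the most calls, 30 of 78, and leaving out tumor liver 2 the fewest, 7. The 19 called in each alternative in which they were tested were Il1b, Prtn3, Socs3, Cirbp, Coro1a, Spata13, Ddx60, Junb, Plac8, Fcer1g, Slc40a1, Slc11a1, Igkv8-30, Ngp, Alox5ap and Sec14l2, and the chaperones Hspa4l and Dnajb2 with Gsta3. Of these, Prtn3 was not tested under 3 of the alternatives, Ddx60 under 2, and Ngp and Slc40a1 under 1 each. Stricter filters on low values removed Prtn3, Ddx60 and Ngp, and leaving out liver-enriched genes removed Prtn3 and Slc40a1. Prtn3 and Ddx60 had passed the main filter in lung only through their tumor arrays, so for them these calls are not separate support. Among the 19, Alox5ap changed by 1.225 in lung and -0.080 in liver, and Sec14l2 by -1.552 and 0.118. Their calls thus rest on lung and do not show a change shared by both organs.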

How the data were processed

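The authors deposited 1 log2 value per probe set and array, made with GCRMA (a background correction from probe sequence with, by default, quantile normalization), per the submitters' processing notes, which name limma too and give no versions. The labels hold no scan date or batch. With 3 arrays a group, the number of arrays sets the precision. Of 22626 probe sets, 20380 had 1 gene symbol in the platform annotation, 691 several and 1555 none here. Of several probe sets of a gene, the one highest on average across all arrays was used.

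The 7194 genes above 4 on at least 3 arrays of each organ were fitted together in limma 3.58.1 (lmFit and eBayes, R 4.3.3) with 4 group means, and the averaged change, each organ's change and their difference are contrasts of that fit, two-sided. P-values were adjusted by Benjamini-Hochberg over all 7194 genes, and called means adjusted p under 0.05. Where a group's arrays were all at or under 4, the fold is a bound against 4. The fit held no term for mouse, so the lung and liver arrays of a mouse were counted as independent. P-values measure the spread between arrays within the groups, and each condition had 3 mice.

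Genes were singled out by rule: the 12 rises and 12 falls with the largest smaller organ change among called genes apart in both organs, up to 4 called members of each of 33 lists moving the same way in both organs (2 members of a list without a call), the 6 largest averaged changes each way, up to 6 that differed between organs, and 22 set genes. Rbm3, one of these, had no probe set with 1 gene. Csf3r, Ncf4, Dnajc12, H2-Eb1, Bhlhe40, Smad7, Kif22, Hmgb2, Ifitm1, Cd300lf, Adgre1, Cd79a, Cd3e and the heat shock genes outside this rule were named after their values were seen. The members, lists, motifs and rule were chosen with earlier results of these data known. Alternatives changed the filter, probe set, normalization, fit, arrays and threshold.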

Additional observations from a re-analysis of the deposited data

Results flagged for a closer look

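Among the genes named here, 16 of the 47 with both calls are listed: their averaged change was called and the lung and liver changes also differed by limma's test of the difference (lung change minus liver change, log2). Among leukocyte genes the difference was 5.39 for Ngp, 2.32 for Csf3r, 1.56 for Ncf4, 1.31 for Alox5ap, which encodes the leukotriene synthesis protein FLAP, and 1.08 for H2-Eb1. It was 1.28 for Ifitm1. For Ctse, which encodes cathepsin E, it was 1.82, and another probe set of that gene had changes of -0.69 in lung and -0.24 in liver. Among iron genes it was 1.71 for Slc40a1, whose other probe set gave 3.36 and 0.69, and 1.48 for Tfrc, for which 1 other probe set gave -0.94 in lung and -0.99 in liver. The difference was negative in the rest: -1.15 for Grpel2, a co-factor of the mitochondrial HSP70, -1.65 for the ascorbate transporter gene Slc23a2, -1.67 for Sec14l2, a lipid-binding protein, -1.89 for Dnajc12, -1.90 for Mgp, -1.91 for Myc and -2.09 for Smad7.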

How the results depend on the processing

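For the averaged change, the count of 618 genes became 116 with the replicate block formed by averaging both organs of a number, 319, 331, 111, 153 and 189 without tumor replicate 1 or 2 or control replicate 1, 2 or 3 of both organs, 182 without the lung arrays with more hepatocyte transcripts, and 1072 and 83 at adjusted p under 0.1 and 0.01. The count of 214 became 68, 91 and 98 without control replicate 1, 2 or 3 of both organs, 99 without the hepatocyte-rich lung arrays, 53 at adjusted p under 0.01 and 31 where each organ had to pass an adjusted p of 0.05. The difference between organs, 74 genes, became 37, 26, 3 and 10 without tumor replicate 1 or 3 or control replicate 1 or 2 of both organs. It was 0 by limma without control replicate 3 of both organs (1067 at an unadjusted p under 0.05), 28 without the hepatocyte-rich arrays, and 262 and 3 at 0.1 and 0.01. With single arrays left out the counts ranged from 316 to 692, from 137 to 292 and from 26 to 100. A random replicate block gave 568, 210 and 98. Same-numbered lung and liver arrays had deviations that correlated at 0.04 to 0.13, other pairs at -0.12 to 0.02, and all 12 arrays correlated best with their own number, a hint of pairing from the data and not from the labels. The averaged change of Ctse reversed to -0.47 with the probe set of largest variance. The cause of these shifts was not tested, beyond the fewer arrays in a fit. Fitting each organ alone, an alternative chosen after seeing the data, gave 235 in place of 214.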
